A study of Homo sapiens with 12 samples.

Results

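The 10 genes followed here make up the MX, IFI and IFITM antiviral effectors together with viperin: MX1, MX2, RSAD2, IFI6, IFI27, IFI44, IFI44L, IFITM1, IFITM2 and IFITM3. They were taken by gene symbol, with no threshold on their values, as 10 of the 58288 genes in the deposited expression table. All 10 passed the filter on low values (TPM of at least 1 in at least 3 of the 12 libraries, met by 15973 genes). The choice was made with earlier results of these data known, so shares of all tested genes set beside the members' counts are a description. TPM is a length-corrected share of all transcripts in a library, scaled so that each library sums to 1000000, so levels of different genes can be set side by side.

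The cells were FaDu, an established human head and neck squamous cell carcinoma line, grown in DMEM with 10% FBS. The STING WT line carried Cas9 and a non-targeting guide RNA, and the STING KO line carried Cas9 and a guide RNA against TMEM173, the gene of STING (stimulator of interferon genes). Each line was left unirradiated or given 2 Gy a day on 4 days, which makes 4 groups with 3 libraries apiece. Both lines went through the same lentiviral delivery and selection, and the KO is a single line from 1 guide, so the effect of STING loss and any other difference between these lines cannot be told apart. The labels do not say that libraries came from separate cultures, so p-values measure the spread between these libraries, which may be technical.

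STING is a membrane adaptor in the endoplasmic reticulum that is activated by the cyclic dinucleotide made by cGAS on cytosolic DNA. Through TBK1 and IRF3 it switches on interferon genes, and secreted type I and type III interferons act through JAK kinases on a transcription factor complex (ISGF3), which binds interferon-stimulated response elements in the promoters of antiviral genes. The genes described here are among the classic outputs of that pathway and act at different steps of virus entry, replication and release. In a tumor cell line their RNA levels can be read as a sign of interferon signaling, which was itself not measured here.

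TMEM173 was lower in the KO line. Unirradiated WT libraries measured 21.7, 23.5 and 21.1 TPM, unirradiated KO libraries 5.18, 5.29 and 6.96 TPM. The values were 26.1, 21.4 and 21.7 TPM in irradiated WT against 6.35, 7.41 and 7.08 TPM in irradiated KO libraries. Transcript remained in the KO line, and an RNA level does not show whether protein was made. The study reports loss of STING protein by immunoblot. All 8 squamous epithelial markers (among them KRT5, KRT14 and TP63) were above 1 TPM in every library, with summed levels of 7310 to 10102 TPM over all libraries. Of 9 immune, endothelial and stromal markers, 3 (CD14, VWF and COL1A1) were above 1 TPM in every library, none of the 9 exceeded 9.23 TPM, and their summed level was 11.9 to 15.1 TPM in unirradiated WT, 14.1 to 14.5 TPM in unirradiated KO, 13.1 to 15.8 TPM in irradiated WT and 14.2 to 15.3 TPM in irradiated KO libraries. PTPRC and CD3E, which define leukocytes and T cells, did not exceed 0.0894 TPM in any library. Each library held 14860 to 15292 genes at 1 TPM or more. The read depth is unknown, because TPM does not keep it.

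Most of these genes lie in small clusters. In GRCh38, with GENCODE 29 gene models, MX2 (chr21:41361943-41409390) and MX1 (chr21:41420304-41459214) are neighbors on the plus strand, as are IFI44L (chr1:78619922-78646145) and IFI44 (chr1:78649796-78664078). IFITM2 (chr11:307631-315272, plus strand), IFITM1 (chr11:313506-315272, plus strand) and IFITM3 (chr11:319669-327537, minus strand) form the third cluster. RSAD2 (chr2:6865806-6898239, plus strand), IFI27 (chr14:94104836-94116698, plus strand) and IFI6 (chr1:27666061-27672218, minus strand) stand apart from the rest.

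The promoters of these genes are shown because the members moved together, and because an interferon-stimulated response element is the sequence through which ISGF3 acts. The motif searched was GAAA, any 2 letters and GAAA again, which reads TTTC, any 2 letters and TTTC on the other strand. It was looked for in windows of 300 bases (250 before and 50 after each annotated start, RefSeq, GRCh38.p14). Entries were found for 8 of the 10 members, those other than MX2 and IFITM2. IFITM2 is the member not called between the lines, so called and uncalled members cannot be compared here. The motif occurred in at least 1 window of all 8 genes and in 11 of their 13 windows, against 3.57% of 35116 windows and 4.38% of 27305 genes overall. Because the members are classic outputs of the interferon pathway, these counts are a description and not a test. In the stretches below, written 5′ to 3′ on the gene's own strand, capitals mark the matches and the letters around them are the flanking sequence. Those of IFITM1 and IFI44 run past an annotated start into transcribed bases, and the last IFITM1 match itself reaches 4 bases past the start.
MX1: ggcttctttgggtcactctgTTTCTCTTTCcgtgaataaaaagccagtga
RSAD2: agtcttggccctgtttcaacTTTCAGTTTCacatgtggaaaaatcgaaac
IFI6: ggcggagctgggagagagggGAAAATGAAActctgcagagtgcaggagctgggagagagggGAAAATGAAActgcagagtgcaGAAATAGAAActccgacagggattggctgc
IFI27: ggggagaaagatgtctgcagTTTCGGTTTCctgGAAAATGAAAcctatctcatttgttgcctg
IFI44: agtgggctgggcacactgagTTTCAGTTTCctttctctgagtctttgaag
IFI44L: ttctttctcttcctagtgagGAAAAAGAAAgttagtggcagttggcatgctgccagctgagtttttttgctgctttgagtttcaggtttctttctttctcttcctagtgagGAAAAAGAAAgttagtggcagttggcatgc
IFITM1: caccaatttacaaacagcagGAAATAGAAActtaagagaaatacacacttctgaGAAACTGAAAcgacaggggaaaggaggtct
IFITM3: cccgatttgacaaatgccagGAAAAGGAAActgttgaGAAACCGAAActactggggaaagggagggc

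The stretches lie at chr21:41431834-41431883 (MX1), chr2:6877612-6877661 (RSAD2), chr1:27672256-27672368 (IFI6), chr14:94110608-94110670 (IFI27), chr1:78649751-78649800 (IFI44), chr1:78620264-78620404 (IFI44L), chr11:313980-314063 (IFITM1) and chr11:320866-320932 (IFITM3). The first matched base was 196 bases upstream of its start for MX1, 145 for RSAD2, 156 for IFI6, 164 for IFI44L, 40 for IFITM1 and 52 for IFITM3. The single IFI27 stretch serves a pair of annotated starts, 108 and 187 bases downstream of it, and the IFI44 stretch a pair at 18 and 60 bases. IFI6 carried 3 matches, IFI27, IFI44L, IFITM1 and IFITM3 carried 2 each, and RSAD2 and IFI44 carried 1. A further match of MX1 lay within the transcribed bases of another annotated start and is not printed. A match is a description of the letters and does not show that a factor was bound.

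In unirradiated WT cells the 10 genes spanned a wide range of levels. IFITM3 had the highest level, 1016 ± 119 TPM (SD, n = 3), and RSAD2 the lowest, 6.71 ± 1.83 TPM. IFITM1, at 293 ± 19.4 TPM, and IFI44, at 153 ± 23.5 TPM, followed IFITM3, and the libraries of these 3 genes did not overlap. IFI27 (75.7 ± 18.1 TPM), IFITM2 (64.1 ± 3.14 TPM) and IFI6 (56.5 ± 8.95 TPM) overlapped each other in this order, MX1 lay below them at 36.0 ± 9.36 TPM, and IFI44L, MX2 and RSAD2 (9.58 ± 2.91, 7.10 ± 2.50 and 6.71 ± 1.83 TPM) overlapped at the bottom. In unirradiated KO cells the order was IFITM3, IFITM1, IFITM2, IFI6, IFI44, IFI27, MX1, MX2, IFI44L and RSAD2, and among adjacent pairs the libraries of IFI6 and IFI44 alone overlapped. IFI44 thus went from the third place to the fifth, and IFITM2 from the fifth to the third. RSAD2 was at the bottom in both lines.

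**Figure D1:**
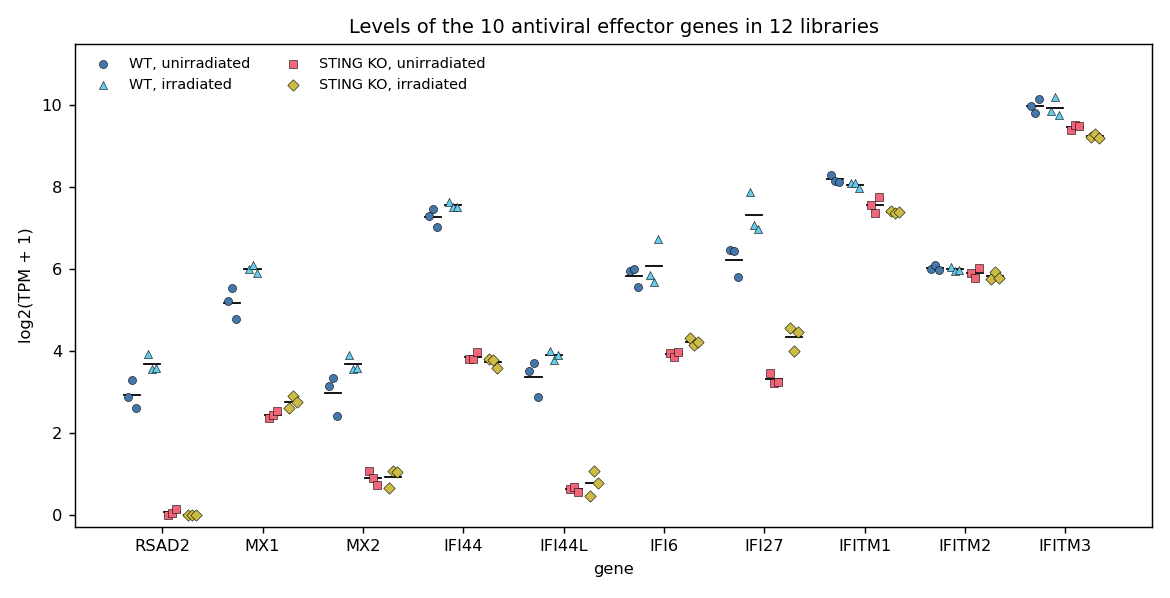
Level of each of the 10 genes, as log2(TPM + 1) on the vertical axis, in the 12 libraries. Each point is a library, each short line the mean of 3 libraries of a group. RSAD2, the MX genes and the IFI genes sit well below WT in both KO groups, while the IFITM2 points of the 4 groups lie at nearly the same height, between 53.3 and 67.6 TPM.

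The first comparison asked which of these effectors differed between STING KO and STING WT cells without radiation. All but IFITM2, 9 of the 10 genes, were lower in KO cells by limma at an adjusted p under 0.05, whereas 1.26% of the 15973 tested genes were called lower. The same 9 genes had every KO library below every WT library, against 12.1% of tested genes. The median log2 fold change was -2.41 over the 10 members and -0.021 over all tested genes. Folds are on the log2(TPM + 1) scale and understate the change of genes near 1 TPM. In these bulk samples, fewer expressing cells and less RNA per cell cannot be told apart.

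RSAD2 encodes viperin, a radical SAM enzyme that makes a chain-terminating nucleotide and hinders the replication of many viruses. It measured 6.36, 8.70 and 5.09 TPM in the WT libraries and 0, 0.0186 and 0.107 TPM in the KO libraries. The gene was thus at or close to 0 in every KO library, and the groups were far from overlapping. The log2 fold change was -2.86 ± 0.16 (SE; limma, adjusted p = 5.8e-06), and it became -5.62 with a pseudocount of 0.1 in place of 1.

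The MX genes encode dynamin-like GTPases that trap incoming viral ribonucleoproteins or capsids, MX1 against influenza and other viruses and MX2 against HIV. MX1 was at 36.5, 45.1 and 26.4 TPM in WT and at 4.16, 4.38 and 4.75 TPM in KO libraries. MX2 was at 7.87, 9.13 and 4.31 TPM in WT and at 1.10, 0.853 and 0.639 TPM in KO libraries. Both were lower with no overlap, MX1 with a log2 fold change of -2.74 ± 0.16 (limma, adjusted p = 6.6e-06) and MX2 with one of -2.07 ± 0.23 (adjusted p = 8.7e-04). The ratio of MX1 to MX2 within a library was 5.23 ± 0.79 in WT and 5.45 ± 1.84 in KO (n = 3 each, two-sided exact permutation p = 0.8).

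IFI44 and IFI44L are neighboring, related genes whose proteins are induced by interferon and limit the growth of several viruses. IFI44 was at 155, 176 and 129 TPM in WT and at 12.9, 12.9 and 14.6 TPM in KO libraries, and its change was -3.41 ± 0.11 (limma, adjusted p = 4.5e-08), the greatest size among the members on the log2(TPM + 1) scale but below those of RSAD2 and IFI44L with a pseudocount of 0.1, where it was -3.49. IFI44L was at 10.3, 12.05 and 6.37 TPM in WT and at 0.530, 0.600 and 0.466 TPM in KO libraries, a change of -2.75 ± 0.20 (adjusted p = 4.1e-05). The KO level of IFI44L was below 1 TPM throughout, and its change became -3.89 with a pseudocount of 0.1. The IFI44 to IFI44L ratio was 16.6 ± 3.14 in WT and 25.7 ± 5.04 in KO, higher in every KO library (exact permutation p = 0.1, the smallest that 3 against 3 libraries allow).

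IFI6 and IFI27 encode small hydrophobic proteins of the same family (ISG12), IFI6 being known for restricting flaviviruses at the endoplasmic reticulum and IFI27 for effects on mitochondria and cell death. IFI27 was at 86.9, 85.5 and 54.8 TPM in WT and at 9.92, 8.35 and 8.39 TPM in KO libraries, a log2 fold change of -2.93 ± 0.25 (limma, adjusted p = 1.5e-04). IFI6 was at 60.6, 62.7 and 46.2 TPM in WT and at 14.5, 13.3 and 14.7 TPM in KO libraries, a change of -1.91 ± 0.23 (adjusted p = 0.0017). Neither gene overlapped between the lines, and both kept a level above 5 TPM in every KO library. Within a library the IFI27 to IFI6 ratio was 1.33 ± 0.13 in WT and 0.63 ± 0.057 in KO, lower in every KO library (exact permutation p = 0.1), so IFI27 was the higher of the pair in WT and the lower in KO.

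IFITM proteins sit in plasma and endosomal membranes and block the fusion of entering viruses, IFITM1 mostly at the cell surface and IFITM2 and IFITM3 in endosomes. IFITM1 was at 315, 285 and 278 TPM in WT and at 189, 166 and 216 TPM in KO libraries, and IFITM3 was at 1008, 902 and 1140 TPM in WT and at 668, 728 and 716 TPM in KO libraries. Both were lower in every KO library, with log2 fold changes of -0.63 ± 0.087 (limma, adjusted p = 0.0042) and -0.52 ± 0.11 (adjusted p = 0.043). IFITM2 was at 62.96, 67.6 and 61.6 TPM in WT and at 59.3, 53.9 and 63.8 TPM in KO libraries. Its groups overlapped, and its log2 fold change of -0.12 had a 95% interval of -0.28 to 0.039 (adjusted p = 0.50). The IFITM genes therefore lay at the small end of the 10 changes, with the call for IFITM3 close to the threshold. It was lost when unirradiated WT replicate 1 or 3, any of the 3 unirradiated KO libraries, irradiated WT replicate 1 or any irradiated KO library was left out (adjusted p = 0.063 to 0.14).

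The IFITM values carry a limit of their own. In GENCODE 29 all 1767 bases of IFITM1 lie within the span of IFITM2 on the same strand, and 25.5% of the 100-base stretches of IFITM1 transcripts (the read length) also occur in IFITM2, so reads could be split between them in the counting. For IFITM3, 3.79% of stretches were shared with another gene, and the other 7 members shared none. Taken as a ratio within a library, IFITM1 to IFITM2 was 5.001, 4.22 and 4.52 in the WT libraries and 3.18, 3.07 and 3.39 in the KO libraries, lower in every KO library (exact permutation p = 0.1). The IFITM3 to IFITM2 ratio overlapped at 13.3 to 18.5 in WT and 11.2 to 13.5 in KO libraries (exact permutation p = 0.2), and the IFITM3 to IFITM1 ratio was 3.49 ± 0.53 in WT and 3.75 ± 0.57 in KO (exact permutation p = 0.5).

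The abundant IFITM transcripts set the summed level of the 10 genes. The 3 IFITM genes summed to 1255 to 1480 TPM in WT and 916 to 996 TPM in KO libraries. The other 7 summed to 272 to 399 TPM in WT and 40.4 to 43.6 TPM in KO libraries. Together the 10 genes took 0.165% to 0.175% of all transcripts in WT and 0.0959% to 0.104% in KO libraries.

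WT replicate 3 was the lowest unirradiated WT library for 9 of the 10 members, all but IFITM3, for which it was the highest. It was also the lowest for 32 of 39 tested genes in a list of other antiviral interferon-stimulated genes. Without it or any other single library the log2 fold changes of the 9 genes kept their sign, with ranges of -2.56 to -2.94 for MX1, -1.89 to -2.35 for MX2 and -3.31 to -3.53 for IFI44. Its part in the radiation comparison is given there.

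The second comparison set KO against WT after 4 fractions of 2 Gy. The same 9 genes were called lower (limma), against 2.66% of tested genes, and all 10 members, IFITM2 included, had every KO library below every WT library, against 14.5% of tested genes. The median log2 fold change was -2.86 over the members and -0.017 over all tested genes.

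RSAD2 was at 14.1, 10.7 and 10.96 TPM in irradiated WT and listed at 0 in all 3 irradiated KO libraries, so no fold is given (limma, adjusted p = 5.3e-07). IFI44, at 199.5, 182 and 183 TPM in WT and 13.0, 12.6 and 10.9 TPM in KO libraries, had a log2 fold change of -3.84 ± 0.11 (adjusted p = 1.3e-08). MX1, at 62.6, 67.1 and 58.6 TPM in WT and 5.09, 6.44 and 5.68 TPM in KO libraries, had one of -3.24 ± 0.16 (adjusted p = 1.2e-06). These 3 genes were again separated by wide gaps.

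IFI44L was at 15.0, 12.8 and 13.9 TPM in irradiated WT and 0.379, 1.09 and 0.693 TPM in irradiated KO libraries, with a log2 fold change of -3.13 ± 0.20 (limma, adjusted p = 1.2e-05). MX2 was at 13.9, 10.7 and 10.96 TPM in WT and 0.563, 1.09 and 1.07 TPM in KO libraries, with one of -2.76 ± 0.23 (adjusted p = 7.2e-05). IFI27 and IFI6 changed by -2.96 ± 0.25 (adjusted p = 9.2e-05) and -1.86 ± 0.23 (adjusted p = 0.0013). The folds of IFI27 and IFI6 differed from their unirradiated folds by less than 1 SE.

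IFITM1 was at 274, 274 and 250.2 TPM in irradiated WT and 171, 166 and 166 TPM in irradiated KO libraries, a log2 fold change of -0.66 ± 0.087 (limma, adjusted p = 0.0020). IFITM3 was at 925, 1178 and 872 TPM in WT and 594, 633 and 589 TPM in KO libraries, a change of -0.70 ± 0.11 (adjusted p = 0.0063). IFITM2, at 65.0, 60.4 and 62.1 TPM in WT and 53.3, 59.6 and 53.7 TPM in KO libraries, had a log2 fold change of -0.17 that did not pass (adjusted p = 0.24). The IFITM3 call was held after irradiation under every alternative, single libraries left out included (adjusted p = 0.0058 to 0.046).

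**Figure D2:**
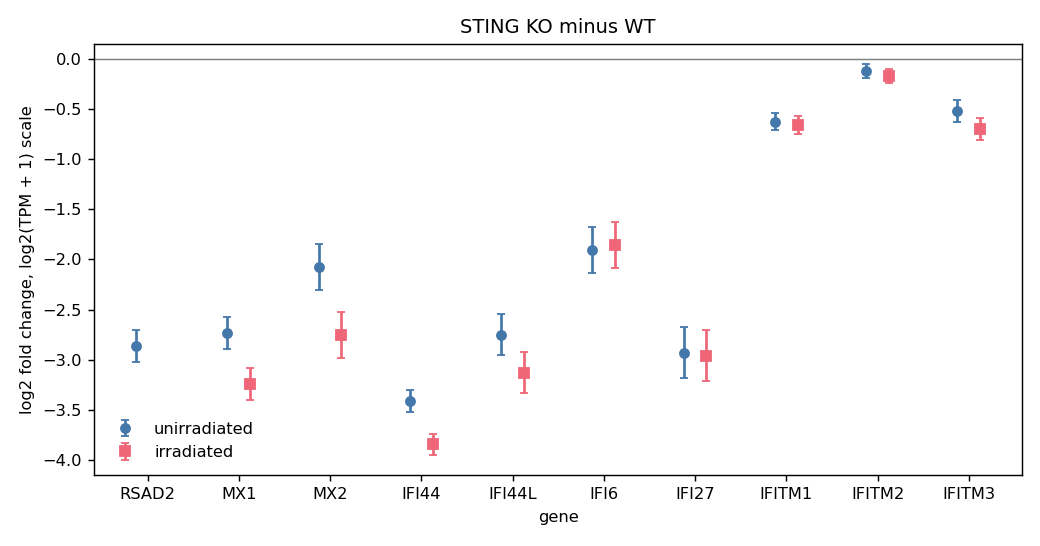
Log2 fold change of STING KO against WT on the log2(TPM + 1) scale for each gene, unirradiated (circles) and irradiated (squares), with bars of 1 SE from limma. RSAD2 has no irradiated point because it is listed at 0 in all irradiated KO libraries; IFI44 lies lowest at -3.41 and -3.84, and the IFITM genes lie between -0.70 and -0.12.

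The third comparison asked which members changed after radiation in WT cells. MX1, RSAD2 and IFI27, 3 of the 10, rose (limma, adjusted p under 0.05), against 2.24% of tested genes called higher, and none was called lower. RSAD2, IFI44L, IFI44, MX1, IFI27 and MX2, 6 of the members, had every irradiated library above every unirradiated library, against 14.7% of tested genes. IFITM1 had every irradiated library below, and the share of tested genes with that order was not computed, so nothing is read from it. The median log2 fold change was 0.41 over the members and 0.017 over all tested genes.

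MX1 was at 26.4 to 45.1 TPM without radiation and at 62.6, 67.1 and 58.6 TPM with it, a log2 fold change of 0.82 ± 0.16 (limma, adjusted p = 0.022). RSAD2 was at 5.09 to 8.70 TPM without radiation and at 10.7 to 14.1 TPM with it, a change of 0.76 ± 0.16 (adjusted p = 0.032). IFI27 was at 233, 135 and 124 TPM in the irradiated libraries, all above the 54.8 to 86.9 TPM without radiation, a change of 1.08 ± 0.25 (adjusted p = 0.046). The first irradiated WT library thus stood above the others for IFI27.

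These 3 calls rested on few libraries and on the settings. RSAD2 lost its call with a pseudocount of 0.1 (limma, adjusted p = 0.19) and with no filter on low values (0.073), and IFI27 with no filter (0.088) and without the trend (0.056). No member was called when unirradiated WT replicate 1 or irradiated WT replicate 1, 2 or 3 was left out, and MX1 alone was called without unirradiated WT replicate 3, the library with the lowest levels. The log2 fold change of RSAD2 was then 0.61 and that of IFI27 0.86, and over all single libraries left out the ranges were 0.62 to 0.99 for MX1, 0.61 to 0.94 for RSAD2 and 0.79 to 1.25 for IFI27. The IFI27 call was lost with any single library left out other than irradiated KO replicate 2. The highest adjusted p among these was 0.081 for MX1, 0.12 for RSAD2 and 0.13 for IFI27.

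Of the members that did not pass, MX2 had a log2 fold change of 0.71 ± 0.23 (limma, adjusted p = 0.13), IFI44L one of 0.53 ± 0.20 (adjusted p = 0.20) and IFI44 one of 0.30 ± 0.11 (adjusted p = 0.17). IFI6 was at 56.4, 50.01 and 105 TPM after irradiation, so a single library, replicate 3, stood above the unirradiated range. Its log2 fold change was 0.25 ± 0.23 with all libraries and -0.075 without that library. The IFITM genes showed values of -0.14 ± 0.087 (IFITM1), -0.034 ± 0.071 (IFITM2) and -0.041 ± 0.11 (IFITM3). The summed level of the 7 genes other than the IFITMs was 468 to 595 TPM after irradiation, all above the unirradiated libraries.

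In the KO line no member was called after radiation (limma), while 2.00% of tested genes were called higher. An unadjusted p under 0.05 (limma) was found for 1 of 10 members, IFI27, against 2896 of all 15973 tested genes. IFI6, MX1 and IFI27 had every irradiated library above every unirradiated library, against 13.7% of tested genes. IFITM3 had every irradiated library below, and the share of tested genes with that order was not computed here either. The median log2 fold change was -0.014 over the members and 0.019 over all tested genes.

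IFI27 was at 9.92, 8.35 and 8.39 TPM in unirradiated and 22.7, 15.1 and 21.1 TPM in irradiated KO libraries. The groups were separate, and the log2 fold change of 1.05 ± 0.25 was close to that in WT cells, but its adjusted p of 0.0513 (limma) missed the threshold. It passed when unirradiated WT replicate 3 or irradiated WT replicate 1 was left out (adjusted p = 0.040 and 0.024), neither of which is a KO library, since all groups share the estimate of the spread. The irradiated KO level remained below every WT library.

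MX1 was at 4.16 to 4.75 TPM before and 5.09 to 6.44 TPM after irradiation, a log2 fold change of 0.31 ± 0.16 that did not pass (limma, adjusted p = 0.34). IFI6, at 14.5, 13.3 and 14.7 TPM before and 18.9, 16.6 and 17.6 TPM after, had one of 0.30 ± 0.23 (adjusted p = 0.55). The remaining values were 0.15 for IFI44L, 0.029 for MX2, -0.085 for IFITM2, -0.13 for IFI44, -0.17 for IFITM1 and -0.22 for IFITM3. RSAD2 was at 0 to 0.107 TPM before and listed at 0 after irradiation, and no fold is given. The IFI27 to IFI6 ratio was 0.63 ± 0.057 before and 1.10 ± 0.17 after irradiation in KO libraries, higher in every irradiated library (exact permutation p = 0.1).

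**Figure D3:**
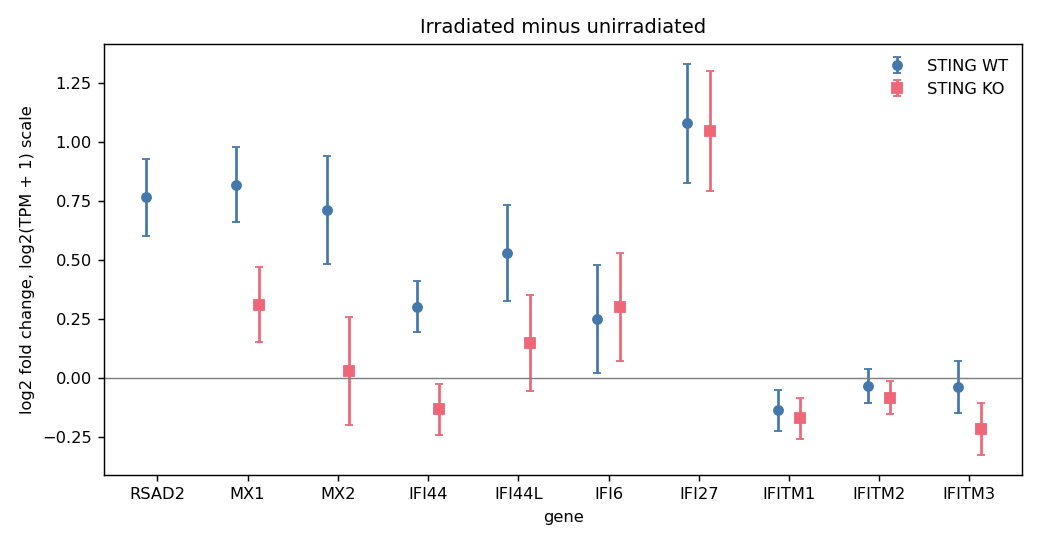
Log2 fold change of irradiated against unirradiated cells on the log2(TPM + 1) scale for each gene, in STING WT (circles) and STING KO (squares), with bars of 1 SE from limma. RSAD2 has no KO point because it is listed at 0 in all irradiated KO libraries; IFI27 lies near 1 in both lines (1.08 and 1.05), whereas the WT points of MX1, MX2, IFI44 and IFI44L lie above their KO points.

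The radiation effects of the lines were compared as an interaction, the effect in KO minus the effect in WT. No member was called (limma), and 0.0188% of tested genes, 3 in all, were called in either direction. An unadjusted p under 0.05 (limma) was found for 3 of 10 members (MX1, RSAD2 and IFI44), against 1056 of all 15973 tested genes. The interaction was -0.51 for MX1 (95% interval -1.01 to -0.0096, adjusted p = 0.75), -0.68 for MX2 (-1.40 to 0.034, adjusted p = 0.76) and -0.43 for IFI44 (-0.77 to -0.094, adjusted p = 0.72). For RSAD2, listed at 0 after irradiation in KO, no fold is given (adjusted p = 0.64). For IFI27 the interaction was -0.030 with an interval of -0.83 to 0.77, and for IFI6 it was 0.050 with one of -0.67 to 0.77. With intervals this wide, neither equal nor unequal radiation effects can be read for these genes.

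The genes upstream of these effectors came from lists of the pathway's parts. Of 21 interferon ligand genes, 1 (IFNE) passed the filter, and IFNB1 and all 13 IFNA genes listed were at 0 in every library. IFNL1, a type III interferon, was at 0.816, 0.865 and 0.658 TPM in unirradiated WT and 1.35, 2.18 and 0.514 TPM in irradiated WT libraries, and listed at 0 in all 6 KO libraries. It has no fitted fold and is named after its values were seen. IFNL1 thus did not overlap between the lines, at a level too low for the filter. IFNL2 and IFNL3 were also listed at 0 in all 6 KO libraries, but at 0 in some WT libraries too. Without the read depth, a listed 0 at such levels cannot be told from a low level.

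IRF9, the DNA-binding part of ISGF3, was lower in KO cells (limma), with a log2 fold change of -1.19 ± 0.18 (adjusted p = 0.0057) in unirradiated and -2.09 ± 0.18 (adjusted p = 7.6e-05) in irradiated cells. It had the greatest fold of its list in unirradiated cells and was named for that. Of the 12 genes of that list, 6 were higher and 6 lower in unirradiated KO cells, with 2 called lower and a median of 0.0060. In irradiated KO cells 3 were called lower, with a median of -0.0093. The shares of all tested genes called lower were 1.26% and 2.66%. STAT2 had log2 fold changes of -0.31 (adjusted p = 0.14) and -0.38 (adjusted p = 0.048). Of the 9 receptor and JAK genes none was called in either comparison, with log2 fold changes of -0.087 (IFNAR2) to 0.099 (IFNLR1) in unirradiated cells. In the list of 7 genes of the STING arm, TMEM173 and IRF7 were called lower in both comparisons. IRF7, which is itself induced by interferon, had log2 fold changes of -0.82 and -1.24.

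Of 39 tested genes in the list of other antiviral interferon-stimulated genes, 30 were called lower in unirradiated and 33 in irradiated KO cells (limma). After radiation in WT cells 9 of the 39 were called higher. The shares of all tested genes so called were 1.26%, 2.66% and 2.24%, and the list's medians were -0.89, -1.23 and 0.27. By sign, all 39 were lower in both KO comparisons, against 8878 and 8630 of all 15973 tested genes. By sign, 36 of the 39 were higher after radiation in WT cells, against 8630 of 15973. The count of 9 was 5 without unirradiated WT replicate 1 or 3 or any of the 3 irradiated WT libraries, and 1 with the compared libraries alone. In KO cells none was called after radiation (limma), but 1 was without unirradiated WT replicate 3, with median-of-ratios scaling or with the replicate block. There 8 of the 39 were at an unadjusted p under 0.05 (limma, main setting), against 2896 of all 15973 tested genes. The members' medians of -2.41, -2.86 and 0.41 in the same comparisons lay further from 0 than those of that list, and this difference was not tested. The list nevertheless held the greatest folds. In unirradiated KO cells its log2 fold changes ran from -6.16 to -0.18, against -3.41 to -0.12 for the members. OASL (-6.16), HERC5 (-5.19) and IFIT2 (-4.49) went beyond every member on the log2(TPM + 1) scale.

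Relatives of the members by sequence family were not called between the lines. Of 8 such genes, 5 passed the filter (IFI27L1, IFI27L2, DNM1, DNM2 and DNM1L), and none was called between KO and WT in unirradiated cells (limma), with log2 fold changes of -0.25 to -0.018. Of the 5, 1 was at an unadjusted p under 0.05 (limma), against 2292 of all 15973 tested genes. IFI27L1 and IFI27L2, which flank IFI27, had values of -0.23 and -0.049 beside -2.93 for IFI27. IFI27L2 rose after radiation in WT cells, from 65.9, 67.3 and 61.1 TPM to 88.3, 78.0 and 80.8 TPM, a log2 fold change of 0.34 (limma, adjusted p = 0.047), and this call was lost with any single library left out other than unirradiated KO replicate 2.

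Genes near the members were examined next, since several members share a cluster. Within 100 kb of a member lay 25 other protein-coding genes, of which 17 passed the filter. Of these 17, 3 were called lower in unirradiated KO cells (limma), against 1.26% of all tested genes, and none was called higher. The median log2 fold change over the 17 was -0.049. All 3 were named after their values were seen. CMPK2, a nucleotide kinase that is itself interferon-induced, overlaps RSAD2 by 830 bases on the opposite strand and had a change of -2.71 ± 0.18 (adjusted p = 1.4e-05), beside -2.86 for RSAD2. The mean of CMPK2 was 10.6 TPM in unirradiated WT and 0.727 TPM in unirradiated KO libraries, against 6.71 and 0.0418 TPM for RSAD2. The log2(TPM + 1) scale thus understates the change of RSAD2 more than that of CMPK2, and the closeness of these folds depends on it. RNF144A, 19.2 kb from RSAD2, had a log2 fold change of -1.03 ± 0.16 (adjusted p = 0.0069), and PPP4R4, 29.4 kb from IFI27, one of -0.51 ± 0.078 (adjusted p = 0.0070). After irradiation CMPK2 (-2.85), RNF144A (-1.05) and DDX24 (-0.19, near IFI27) were called lower, 3 of the 17 against 2.66% of all tested genes. Around the IFITM cluster no other tested gene was called in either comparison. The strand used in counting is not given in the sources used here, so reads of RSAD2 and CMPK2 in their overlap may not have been told apart.

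**Figure D4:**
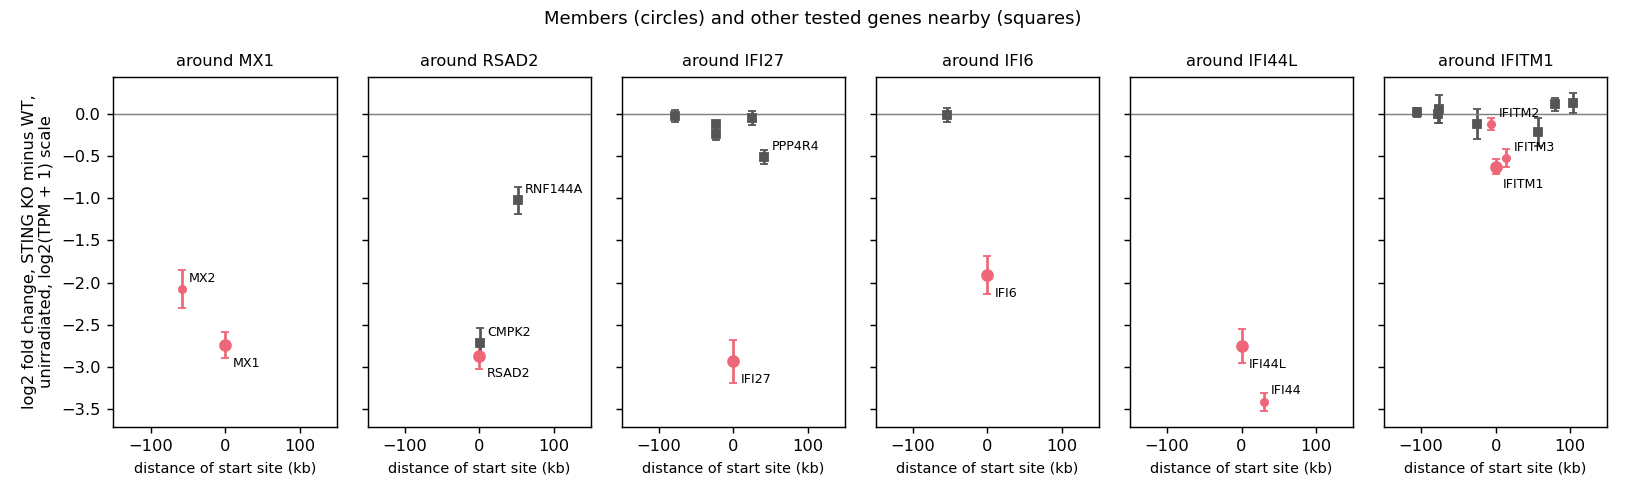
Log2 fold change of unirradiated STING KO against WT, on the log2(TPM + 1) scale with bars of 1 SE, for members (circles) and other tested protein-coding genes nearby (squares), by distance between start sites in kb, around MX1, RSAD2, IFI27, IFI6, IFI44L and IFITM1. CMPK2 (-2.71) lies beside RSAD2 (-2.86) on this scale, which understates the change of RSAD2 more than that of CMPK2. The squares around IFI27, IFI6 and the IFITM cluster lie between -0.51 and 0.13.

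The mean centred profile of the 9 members called in unirradiated cells was compared, over the 12 libraries, with all other tested genes. The highest Pearson correlations were those of DDX58 (0.998), which encodes the RNA sensor RIG-I, ZC3HAV1 (0.997), the zinc finger antiviral protein, FGF2 (0.997), a fibroblast growth factor, ISG15 (0.997), a ubiquitin-like modifier, and HERC6 (0.996), a HECT-type ubiquitin ligase family member. These values are a description, and the 12 points are not independent, since they fall into a KO and a WT set. FGF2 measured 16.5, 18.9 and 15.4 TPM in unirradiated WT and 2.94, 2.59 and 2.59 TPM in unirradiated KO libraries, and 27.5, 24.0 and 23.4 TPM in irradiated WT and 2.59, 3.27 and 2.78 TPM in irradiated KO libraries. Its log2 fold changes of -2.27 and -2.74 in KO and of 0.54 (limma, adjusted p = 0.018) after radiation in WT lay beside -2.07, -2.76 and 0.71 for MX2. Among the members themselves, the correlation with the mean of the other called members was 0.996 for RSAD2 and 0.995 for MX1 and IFI44L, and lower for IFITM1 (0.896), IFITM3 (0.845) and IFITM2 (0.677).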

How the data were processed

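Poly(A) RNA of 12 FaDu libraries had been sequenced as 100 bp paired ends. The submitters' processing notes name HISAT2, StringTie, DESeq2 and hg38, and roles, versions, gene annotation and strand setting are not given in the sources used here. The deposited values are TPM, computed by the authors, in 1 table of 58288 genes, with each library summing to 1000000, and the read depth behind them is unknown. Columns were matched to groups from their names, the labels and the study's methods, where NT2 is the non-targeting guide. The members and gene lists were chosen with earlier results of these data known.

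The study used a count method, and TPM are not counts, so log2(TPM + 1) was tested with limma 3.58.1 (R 4.3.3). Genes with TPM of at least 1 in at least 3 libraries (15973) were fitted with 4 group means and 5 contrasts (eBayes with trend, Benjamini-Hochberg over all tested genes, threshold 0.05). The procedure was tested on simulated data. Ratios within a library were compared by two-sided exact permutation tests (3 against 3, smallest p = 0.1). Named genes were the 10 members, TMEM173, at most the 3 genes of each list with the greatest absolute unirradiated KO fold, protein-coding genes within 100 kb and the 5 genes most correlated with the called members. IFNL1, IFNL2, IFNL3, IFNB1, the IFNA genes, STAT2, IFNAR2, IFNLR1, DNM2 and DNM1L fall outside that rule and were named after their values were seen. All 11 identifiers of the members and TMEM173 matched GENCODE 29 with version, which gave coordinates (GRCh38), and promoter sequences came from RefSeq (GRCh38.p14). Alternatives were scaling by median-of-ratios or quantiles, a pseudocount of 0.1, no filter, a minimum mean TPM of 5, no trend, a replicate block, the compared libraries alone and each library left out. Python 3.11.15 and pandas 2.3.3 were used. The list of interferon receptor, JAK and ISGF3 genes is not reported here in full.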

Additional observations from a re-analysis of the deposited data

How the results depend on the processing

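The counts of members called lower in KO cells stayed within 1.5 times of 9 under every alternative run. They were between 8 and 9 of 10 in unirradiated and at 9 of 10 in irradiated cells with each library left out. No member was called for the difference of radiation effects (0 with each library left out). The count of members called higher after radiation in WT cells was 3. It was 1 with no filter on low values, 0 with the compared libraries alone, and 0 to 3 with each library left out. In KO cells it was 0, but 1 with a pseudocount of 0.1, a mean TPM of at least 5, the replicate block or the compared libraries alone, and 0 to 1 with each library left out; the gene was IFI27 each time. The causes were not tested. IFITM3 in unirradiated KO cells lost its call with no filter (adjusted p = 0.10), median-of-ratios scaling (0.059), no trend (0.064), the replicate block (0.094) and the compared libraries alone (0.085), the last of which also ended the call of IFITM1 (0.080). The deviations of same-numbered libraries correlated at -0.060 to 0.064 over 18 pairs of libraries, none above 0.1. No deviation shared by replicate number was thus seen, which does not show that the replicates were made unpaired. Besides IFITM3 and IFI27, the replicate block ended the call of RSAD2 after radiation in WT cells (limma, adjusted p = 0.067) and changed no other call among the members. Values near 0 changed sign: under quantile normalization MX2 after radiation in KO cells was -0.018 and IFITM3 after radiation in WT cells 0.0014, and with a pseudocount of 0.1 the interaction of IFI27 was 0.033. With each library left out, log2 values that changed sign ranged, after radiation in KO cells, from -0.060 to 0.17 for MX2 and -0.0030 to 0.30 for IFI44L, and in WT cells from -0.075 to 0.46 for IFI6, -0.062 to 0.0048 for IFITM2, -0.17 to 0.045 for IFITM3 and -0.033 to 0.10 for TMEM173. The interaction ranged from -0.15 to 0.38 for IFI6, -0.20 to 0.25 for IFI27, -0.13 to 0.062 for IFITM1 and -0.11 to 0.0064 for IFITM2. None of these values had passed the threshold. TPM keeps no depth, so counting error cannot be given for low genes such as RSAD2, MX2 and IFI44L in KO cells.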
